A study of Homo sapiens with 12 samples.

Results

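The genes described here are those of cholesterol and fatty acid synthesis that the SREBP transcription factors control, with the regulators of SREBP and 2 cholesterol transport genes. Of these 2, *ABCA1* is induced by the LXR receptors, and the name SREBP pathway genes covers it only as a member of the list. The list held 33 genes, chosen by name. A probe set annotated to a single gene was found for 30 of them, and all 30 passed the filter on low signals, out of 13673 genes tested in all. *FDFT1* was not analysed here, and the probe sets of *CYP51A1* and *FADS1* were annotated to several genes and were not used. Of the 30 genes, 7 belong to the mevalonate pathway, 9 to the steps from squalene to cholesterol, 5 regulate SREBP, 7 make fatty acids and 2 move cholesterol.

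Transcripts had been measured in U2OS cells, an established human osteosarcoma line that carries wild-type p53, grown in medium with fetal calf serum. The untreated group served as control for cells given 0.6 µg/ml doxorubicin, an anthracycline that traps topoisomerase II on DNA and breaks it. Cells in 0.1% DMSO, the solvent, served as control for cells given 10 µM nutlin-3, which keeps MDM2 from binding p53 and raises p53 without breaking DNA. All cells were taken at 24 h, and each of the 4 groups had 3 arrays. The labels leave unstated whether the 3 arrays of a group came from separate cultures. The p-values therefore reflect the spread among these arrays alone, and that spread may be technical. All groups are of a single cell line, and how far the values carry to other cells was not tested.

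SREBPs are made as precursors in the membrane of the endoplasmic reticulum. When sterols are low, SCAP carries them to the Golgi, where 2 proteases cut the precursor and free the part that enters the nucleus. When sterols are high, INSIG proteins hold SCAP back. SREBP-2, from *SREBF2*, acts mainly on genes of cholesterol synthesis and uptake, and SREBP-1c, from *SREBF1*, mainly on genes of fatty acid synthesis. *INSIG1* and both *SREBF* genes are SREBP targets themselves. The arrays measured transcripts only, and neither the cleaved SREBP proteins nor sterols.

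Over the genes tested, log2 values of arrays within a group had correlations of 0.98 to 0.991. Both agents raised the p53 targets *CDKN1A*, by 2.47 with doxorubicin and 2.30 with nutlin-3 on the log2 scale, and *MDM2*, by 1.42 and 2.14. Of 8 mesenchymal and osteoblast markers 5 passed the filter. The signals of all 8 summed to 77800 to 93100 on all arrays, most of it from *VIM*, *COL1A1* and *SPARC*. Sums here are over every marker of a list with a probe set, past the filter or not. *RUNX2* was lower with both agents (-0.75 and -0.38), *CDH2* was lower with doxorubicin (-1.30, adjusted p = 3e-08) and *COL1A1* was higher with it (0.26). The osteoblast markers *SP7* and *ALPL* and the collagen gene *COL1A2* did not pass the filter. Of the markers of other cell types, 3 of 4 epithelial, 2 of 4 leukocyte and 1 of 3 endothelial genes passed, and no marker with a probe set averaged 0. The summed leukocyte signal was 152 to 242 in untreated, 505 to 781 in doxorubicin, 124 to 171 in DMSO and 315 to 418 in nutlin-3 cells. Of its genes *LAPTM5* was called higher with both agents (2.35 and 1.84), *CD3E* was called with neither, and *PTPRC* did not pass the filter. The summed epithelial signal was 2010 to 2190, 1410 to 1720, 1070 to 1250 and 782 to 855 in the same order, and the endothelial one lay between 121 and 313 on all arrays. The part of these markers in the results was not tested. RNA from doxorubicin cells had a raised 3′ to 5′ signal ratio, a measure of shortened transcripts or uneven amplification. For *ACTB* the ratio was 1.53 ± 0.0754 in untreated and 3.12 ± 0.577 (SD, n = 3) in doxorubicin cells, with all 3 treated arrays above all 3 controls (exact 2-sided permutation test, p = 0.1, the smallest that 3 against 3 arrays allow). It was 1.28 ± 0.0281 in DMSO and 1.31 ± 0.026 in nutlin-3 cells (p = 0.2, exact permutation test). The ratio of the bacterial dap control RNA was 2.84 ± 0.401 in untreated and 7.67 ± 3.85 in doxorubicin cells (p = 0.1, exact permutation test), and that of *GAPDH* 1.01 ± 0.0356 and 1.07 ± 0.116 (p = 0.6, exact permutation test). Doxorubicin array 1 had the lowest *ACTB* and dap ratios of its group, 2.48 and 3.76.

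Most of the listed genes that responded to either agent went down. Doxorubicin lowered 17 of 30 and raised 4. Over all genes tested, doxorubicin lowered 25.6% and raised 30.1%, and 55.7% were called in either direction, so a call alone is common in this comparison. Nutlin-3 lowered 13 of 30 and raised 3, where over all genes it lowered 13.9% and raised 12.5%, with 26.4% called in either direction. The median log2 change of the 30 genes was -0.37 with doxorubicin and -0.27 with nutlin-3, beside 0.08 and 0.01 over all genes tested. With each array centred on its median, the median of all genes with doxorubicin was -0.10, and the split was 18 lower and 2 higher with doxorubicin (32.1% and 20.0% of all genes) and 12 lower and 1 higher with nutlin-3 (11.8% and 8.51%). Changes ran from -2.38 (*SCD*) to 1.14 (*ABCA1*) with doxorubicin and from -1.12 (*INSIG1*) to 1.83 (*ABCA1*) with nutlin-3. A gene was called when its limma adjusted p (Benjamini-Hochberg over all genes tested) was under 0.05, and log2 changes are of signal + 16, which understates the change of dim genes. In bulk RNA of this kind, fewer cells that express a gene and less of its RNA per cell cannot be told apart.

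The same 12 genes were lowered by both agents: *SREBF1*, *INSIG1*, *SCAP*, *IDI1*, *SQLE*, *LSS*, *EBP*, *SC5D*, *DHCR7*, *SCD*, *FADS2* and *ELOVL6*. They are 40% of the 30, beside 7.41% of all genes tested. The calls of *IDI1* and *LSS* among them rest on the choice of probe set, as given for each. Both agents raised *ABCA1* and *HSD17B7*, 2 of the 30, beside 8.25% of all genes. No member was called in opposite directions by the agents, as 1.39% (lower with doxorubicin, higher with nutlin-3) and 2.22% (the reverse) of all genes were. Doxorubicin alone lowered *SREBF2*, *MVD*, *FDPS*, *MSMO1* and *ACACA* and raised *ACLY* and *ACSS2*. Nutlin-3 alone lowered *INSIG2* and raised *HMGCS1*. That a gene was called with a single agent does not show that its responses differ, which is tested further on. The remaining 7, *ACAT2*, *MVK*, *PMVK*, *TM7SF2*, *NSDHL*, *FASN* and *STARD4*, were called with neither agent. All 3 treated arrays lay below all 3 control arrays for 16 of the 30 genes with each agent, beside 26.5% of all genes with doxorubicin and 21.9% with nutlin-3. They lay above for 4 genes with doxorubicin (32.4% of all genes) and for 3 with nutlin-3 (21.2%).

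**Figure D1:**
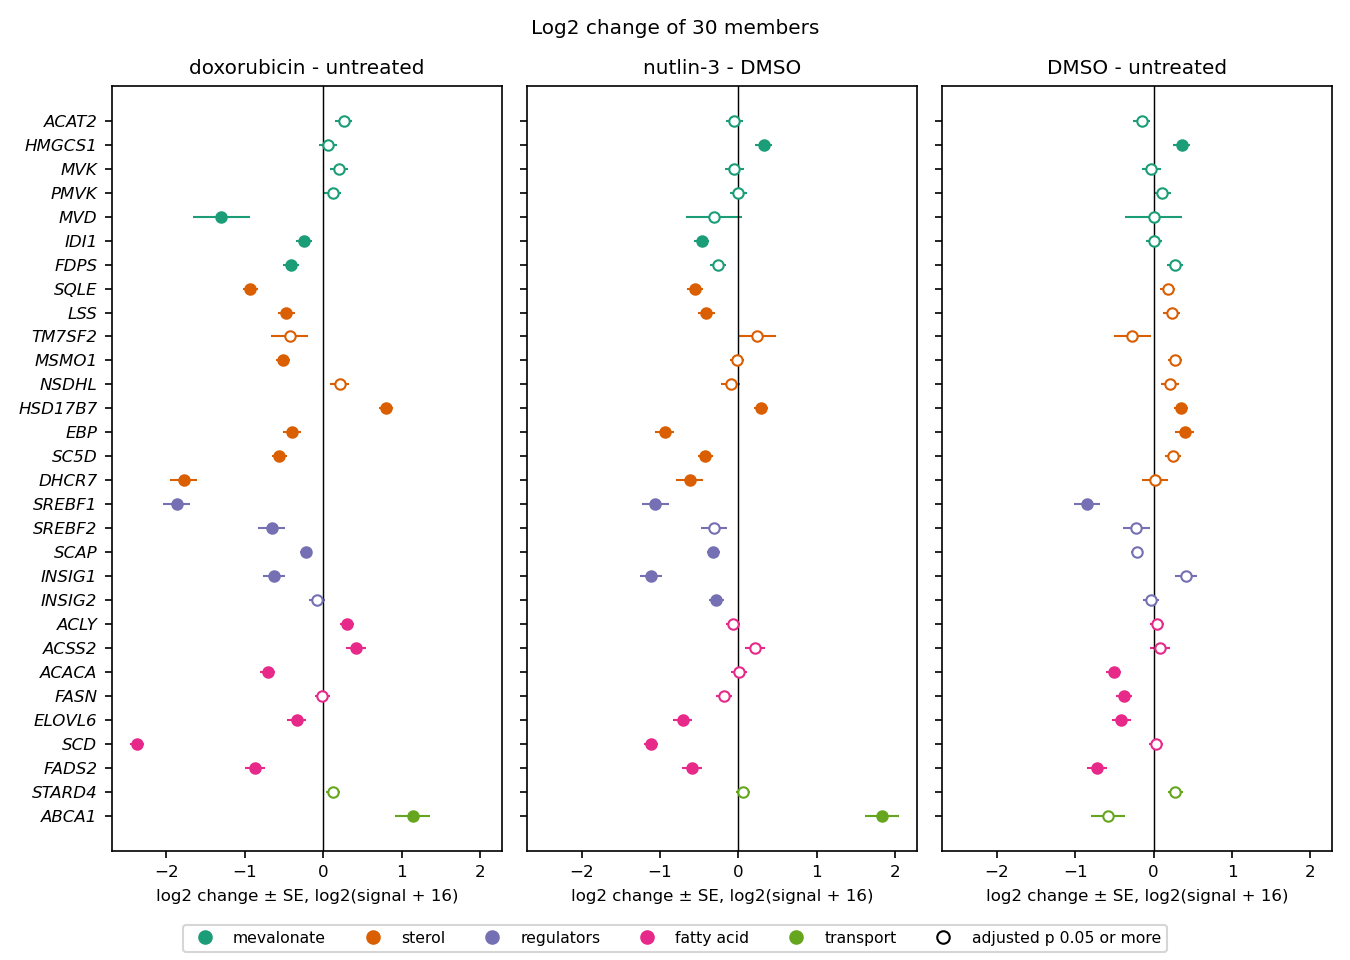
Log2 change of 30 SREBP pathway genes with doxorubicin against untreated, with nutlin-3 against DMSO and in DMSO against untreated cells (x axis, log2 of signal + 16; bars are limma standard errors, 3 arrays a group), ordered and coloured by role. Filled points were called at adjusted p under 0.05 and open points were not; *SCD* is lowest with doxorubicin at -2.38 and *ABCA1* highest with both agents at 1.14 and 1.83.

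Among the regulators, doxorubicin lowered 4 of 5 (*SREBF1*, *SREBF2*, *SCAP*, *INSIG1*) and nutlin-3 lowered 4 of 5 (*SREBF1*, *SCAP*, *INSIG1*, *INSIG2*), and none was raised. That is 80% called with each agent, beside 55.7% and 26.4% of all genes. *SREBF1*, the gene of SREBP-1a and SREBP-1c, had signals of 1464, 1219 and 908 in untreated cells and 277, 332 and 322 in doxorubicin cells. It had 736, 601 and 609 in DMSO and 380, 261 and 274 in nutlin-3 cells. Neither treated group overlapped its control, and the DMSO arrays also lay wholly below the untreated ones. The log2 change was -1.87 (SE 0.17, adjusted p = 6.8e-08) with doxorubicin and -1.06 (adjusted p = 1.3e-04) with nutlin-3. The DMSO cells were lower than the untreated ones (-0.85, adjusted p = 0.0031), and both treated groups ended at nearly the same mean signal, 310 ± 29.1 and 305 ± 65.1 (SD, n = 3).

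*SREBF2*, the gene of SREBP-2, gave 498, 426 and 376 in untreated and 227, 336 and 247 in doxorubicin cells, without overlap, and fell by 0.66 (SE 0.17, adjusted p = 0.0037). Its other probe sets gave -1.15, called, and -0.28, not called (adjusted p = 0.23 when that one stood for the gene). With nutlin-3 it gave 323, 238 and 326 beside 334, 439 and 337 in DMSO, a log2 change of -0.31 that was not called (adjusted p = 0.22). The other probe sets gave 0.12 and -0.44, also not called. With array weights in the fit the fall of *SREBF2* with nutlin-3 was called (-0.42, adjusted p = 0.041). The difference between its 2 responses, -0.35, was not called either (SE 0.24, adjusted p = 0.28). *SCAP*, the escort of SREBP, changed little in size: from 2147 ± 89 to 1844 ± 59.6 with doxorubicin (-0.22, adjusted p = 0.038) and from 1850 ± 82.2 to 1477 ± 126 with nutlin-3 (-0.32, adjusted p = 0.0086; SD, n = 3). The doxorubicin call of *SCAP* was lost in 5 of the 12 fits that left out an array, those without untreated array 1 or 3, doxorubicin array 2 or 3 or DMSO array 2 (-0.22 to -0.19, adjusted p from 0.050 to 0.10).

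*INSIG1*, which retains SCAP in the endoplasmic reticulum, fell with both agents. Its signals were 636, 650 and 582 in untreated and 463, 327 and 408 in doxorubicin cells, a log2 change of -0.63 (SE 0.14, adjusted p = 0.0012). They were 983, 858 and 698 in DMSO and 416, 374 and 342 in nutlin-3 cells, a change of -1.12 (adjusted p = 1.3e-05). On this brightest probe set the control groups differed in the other direction from *SREBF1*, with every DMSO array above every untreated array. That difference was not called (0.42, adjusted p = 0.060), and the other probe sets gave 0.08 and -0.04, also not called. The treated groups again ended close together, at 399 ± 68.2 and 377 ± 37. All 3 probe sets of *INSIG1* gave lower values with each agent, from -0.46 to -1.14 with doxorubicin and from -0.59 to -1.12 with nutlin-3, and the dimmest was called with neither. *INSIG2*, its relative, was near 760 ± 82.7 in untreated and 717 ± 4.8 in doxorubicin cells (-0.08, adjusted p = 0.54). It went from 741 ± 33.8 in DMSO to 609 ± 16.4 with nutlin-3 (-0.28, adjusted p = 0.049), a call that was lost in 10 of the 12 fits that left out an array, all but those without untreated array 1 or 3 (-0.30 to -0.24, adjusted p from 0.051 to 0.16).

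**Figure D2:**
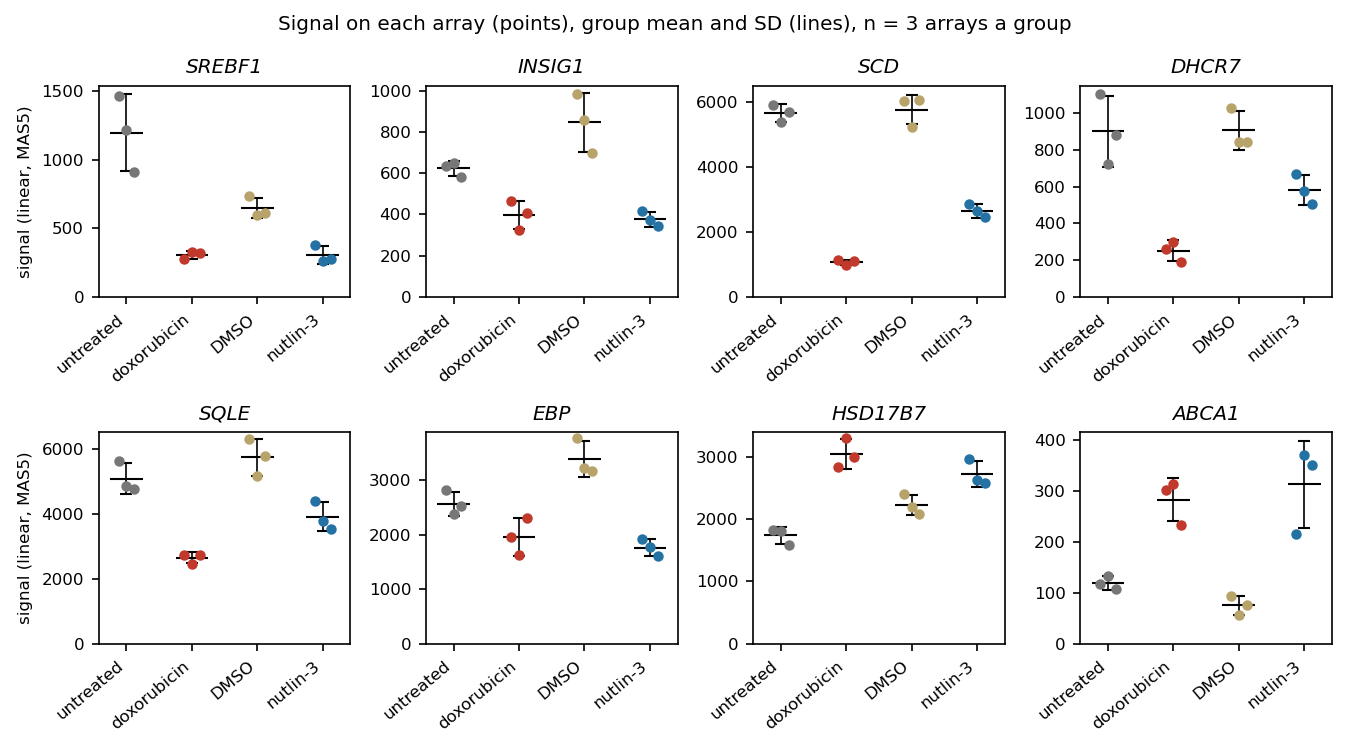
Signal on each array (y axis, linear MAS5 signal, from 0) of 8 genes in untreated, doxorubicin, DMSO and nutlin-3 cells; points are arrays, horizontal lines group means and bars the SD of 3 arrays. *SREBF1* and *SCD* are lower in both treated groups than in their controls, and *ABCA1* and *HSD17B7* are higher. On the probe sets shown, *INSIG1* and *EBP* start higher in DMSO than in untreated cells.

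Promoter sequence was set beside these values because 12 of the genes moved down together. RefSeq promoter entries (assembly GRCh38.p14, from 250 bases before to 50 after each start) matched 29 of the 33 genes with 40 promoters; *FDFT1*, *SQLE*, *FASN* and *ACAT2* had no entry. The 250 bases before the start are shown for both SREBF genes, for *INSIG1* and *SCD*, which fell with both agents, and for *ABCA1*, which rose with both. They lie at chr22:41832855-41833104 (plus strand, *SREBF2*), chr17:17836987-17837236 (minus strand, *SREBF1*), chr7:155297628-155297877 (plus strand, *INSIG1*), chr10:100346983-100347232 (plus strand, *SCD*) and chr9:104928156-104928405 (minus strand, *ABCA1*). Each reads 5′ to 3′ in the sense of the gene, and capitals mark matches on either strand to TCACNCCAC (a form of the sterol regulatory element), CCAAT (bound by NF-Y), GGGCGG (bound by Sp1) or CACGTG (an E-box):
SREBF2: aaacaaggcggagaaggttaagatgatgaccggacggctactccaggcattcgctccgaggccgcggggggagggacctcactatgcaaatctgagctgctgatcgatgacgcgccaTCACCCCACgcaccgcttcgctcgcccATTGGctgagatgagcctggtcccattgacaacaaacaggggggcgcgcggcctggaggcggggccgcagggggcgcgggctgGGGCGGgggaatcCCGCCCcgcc
SREBF1: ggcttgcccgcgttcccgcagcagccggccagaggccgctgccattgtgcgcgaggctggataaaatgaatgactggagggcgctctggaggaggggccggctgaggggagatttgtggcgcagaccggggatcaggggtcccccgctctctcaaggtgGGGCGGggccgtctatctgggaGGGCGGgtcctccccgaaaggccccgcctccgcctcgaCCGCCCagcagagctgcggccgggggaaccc
INSIG1: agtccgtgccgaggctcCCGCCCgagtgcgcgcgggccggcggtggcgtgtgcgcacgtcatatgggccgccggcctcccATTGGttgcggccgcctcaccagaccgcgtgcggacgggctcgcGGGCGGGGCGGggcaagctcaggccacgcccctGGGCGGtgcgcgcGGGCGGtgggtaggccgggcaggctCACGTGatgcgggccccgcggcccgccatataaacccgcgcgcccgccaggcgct
SCD: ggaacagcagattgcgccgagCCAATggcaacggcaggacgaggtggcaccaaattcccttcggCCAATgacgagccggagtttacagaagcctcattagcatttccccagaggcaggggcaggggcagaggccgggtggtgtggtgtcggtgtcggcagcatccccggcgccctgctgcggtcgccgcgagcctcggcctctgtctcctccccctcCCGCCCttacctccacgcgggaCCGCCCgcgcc
ABCA1: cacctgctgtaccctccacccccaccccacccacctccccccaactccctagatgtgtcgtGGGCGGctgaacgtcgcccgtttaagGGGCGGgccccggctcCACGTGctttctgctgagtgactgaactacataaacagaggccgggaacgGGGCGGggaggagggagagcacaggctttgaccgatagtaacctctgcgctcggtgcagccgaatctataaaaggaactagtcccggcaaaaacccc

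The sterol regulatory element form stands once in the *SREBF2* promoter, as TCACCCCAC at -133, with CCAAT on the other strand (ATTGG) at -106. It was found in 1 of the 40 promoters of the listed genes and in 1.1% of all 35116 promoters of the same 300 bases. The element is known to vary in sequence, and no match says only that these letters are not in this window. *SCD* has 2 CCAAT boxes, at -229 and -186, and *INSIG1* has 1 CCAAT, 5 GGGCGG and 1 CACGTG, of which a pair of GGGCGG run together. Of the 40 promoters 62.5% held CCAAT, beside 34.6% of all promoters and 34.3% of those of the genes tested. GGGCGG was in 36 of the 40, beside 15786 of all 35116 promoters and 10280 of the 16061 of the genes tested, and CACGTG in 15.0%, beside 7.3% of all promoters and 9.0% of those of the genes tested. Among the 16 promoters of the genes lowered by both agents the shares were 62.5% for CCAAT, 87.5% for GGGCGG and 31.2% for CACGTG. Over all 40 they were 62.5%, 90.0% and 15.0%. The CACGTG matches of the 16 were in 5 promoters of 4 genes. The sterol regulatory element form was in 0 of the 16, and *SREBF2*, which holds it, is not among those genes. These matches are a description of sequence, and binding was not measured.

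The mevalonate pathway, which turns acetyl-CoA into the isoprenoid units of cholesterol, had 7 genes tested. Doxorubicin lowered 3 and raised none (42.9% called, beside 55.7% of all genes), and nutlin-3 raised 1 and lowered 1 (28.6%, beside 26.4%), so the first share lay below that of all genes and the other near it. Its median log2 change was 0.06 with doxorubicin and -0.05 with nutlin-3, beside 0.08 and 0.01 over all genes. *IDI1*, the isomerase of isopentenyl diphosphate, fell with both agents on its brightest probe set. It gave 1133, 1041 and 1162 in untreated and 879, 982 and 937 in doxorubicin cells (-0.25, adjusted p = 0.038), and 1114, 1190 and 1045 in DMSO and 882, 743 and 778 in nutlin-3 cells (-0.47, adjusted p = 0.0015). Treated and control arrays did not overlap with either agent, but the doxorubicin call was lost in 4 of the 12 fits, those without untreated array 1 or 3 or doxorubicin array 1 or 3 (-0.25 to -0.21, adjusted p 0.064 to 0.12). Both calls come from probe sets of a kind that can cross-hybridise. The probe set of *IDI1* that is not of this kind gave -0.16 (adjusted p = 0.56) and -0.24 (adjusted p = 0.49), and another gave 0.07 with nutlin-3, not called.

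*FDPS*, which makes farnesyl diphosphate, went from 3322, 3935 and 3647 to 2598, 2504 and 3082 with doxorubicin, a fall of 0.41 (SE 0.10, adjusted p = 0.0015). With nutlin-3 its arrays read 3699, 3410 and 3889, all below 4017, 4602 and 4534 in DMSO, but the change of -0.26 was not called (adjusted p = 0.061). It was called without DMSO array 1 or doxorubicin array 3 (-0.32 to -0.26). Quantile normalization, array weights, a fit of the compared groups only and a replicate block also gave a call (-0.31 to -0.26). The remaining alternatives gave none, among them each array centred on its median (-0.28, adjusted p = 0.19). *MVD*, mevalonate diphosphate decarboxylase, was dim: 128, 92.5 and 42.5 in untreated and 24.1, 14.2 and 34.4 in doxorubicin cells. Its log2 change of -1.30 (SE 0.36, adjusted p = 0.0055) depends on the constant added before the logarithm, and was -1.76 with 1 and -0.75 with 64. Its doxorubicin mean, 24.2 ± 10.1, lies under the filter's signal of 49.3, so the low end is poorly measured. With nutlin-3 it gave 63.7 ± 21.1 beside 82.5 ± 21.8 (-0.31, adjusted p = 0.58).

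*HMGCS1*, the synthase that makes HMG-CoA and a well-known SREBP-2 target, did not go down. It gave 1344, 1154 and 1033 in untreated and 1186, 1228 and 1250 in doxorubicin cells, which overlap (0.06, adjusted p = 0.65). It gave 1562, 1491 and 1456 in DMSO and 2144, 1671 and 1863 in nutlin-3 cells, all of them above the control (0.32, SE 0.11, adjusted p = 0.034). That call was lost in 5 of the 12 fits, those without any 1 of the DMSO arrays or without nutlin-3 array 1 or 3 (0.23 to 0.35, adjusted p from 0.053 to 0.15). A second *HMGCS1* probe set, nearly as bright, gave 0.10 with nutlin-3 (adjusted p = 0.55), and the mean of both gave 0.21 (adjusted p = 0.092). *ACAT2*, *MVK* and *PMVK*, the enzymes of the first thiolase step and of the mevalonate kinases, had log2 changes between 0.12 and 0.26 with doxorubicin and between -0.05 and 0.00 with nutlin-3, none of them called. *ACAT2* was called with doxorubicin without untreated array 2 or doxorubicin array 1 (0.34 to 0.39), and *MVK* without doxorubicin array 3 (0.32). The other probe sets of *MVK* past the filter gave changes of -0.58 and -1.19 with doxorubicin, both called lower, against 0.20 for the brightest. The mean over the *MVK* probe sets was -0.53 (adjusted p = 0.018), so its direction is uncertain.

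From squalene to cholesterol, doxorubicin lowered 6 of 9 genes and nutlin-3 lowered 5 of 9, and each raised *HSD17B7*. In either direction 77.8% and 66.7% were called, beside 55.7% and 26.4% of all genes. The median log2 change was -0.47 with doxorubicin and -0.41 with nutlin-3. *DHCR7*, the last reductase of the pathway, had the largest change of these with doxorubicin. It went from 1101, 721 and 879 in untreated to 264, 301 and 190 in doxorubicin cells, a log2 change of -1.78 (SE 0.17, adjusted p = 1.5e-07). With nutlin-3 it went from 1027, 843 and 844 to 666, 576 and 505, a change of -0.62 (adjusted p = 0.012). The control means, 900 ± 191 and 905 ± 106, were close to each other. A second probe set of *DHCR7* gave -1.43 with doxorubicin and -0.37, not called, with nutlin-3. The nutlin-3 call was lost without DMSO array 1 and without nutlin-3 array 3 (-0.53, adjusted p 0.060 to 0.061).

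*SQLE*, squalene epoxidase, is one of the rate-limiting enzymes of the pathway and was among the brightest genes of the list. Its signals were 5640, 4862 and 4764 in untreated and 2749, 2464 and 2743 in doxorubicin cells (-0.93, SE 0.10, adjusted p = 6.1e-07). They were 6303, 5168 and 5791 in DMSO and 4415, 3799 and 3544 in nutlin-3 cells (-0.55, adjusted p = 5e-04). Neither pair of groups overlapped. Its 3 other probe sets gave -0.48 to -1.38 with doxorubicin and -0.37 to -0.64 with nutlin-3, of which 2 and 1 were called. *LSS*, which closes the sterol ring as lanosterol synthase, fell by 0.47 (adjusted p = 0.0015) and by 0.41 (adjusted p = 0.010). Its means were 1342 ± 80.6 and 972 ± 172 for untreated and doxorubicin, and 1570 ± 46.6 and 1182 ± 58.2 for DMSO and nutlin-3 cells. A dimmer probe set of *LSS* was called higher with doxorubicin (0.82), and the mean over its probe sets was 0.13 (adjusted p = 0.53) with doxorubicin and -0.11 (adjusted p = 0.70) with nutlin-3, so both falls rest on the brightest probe set.

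*SC5D*, sterol C5-desaturase, fell with both agents, from 2386 ± 143 to 1617 ± 169 with doxorubicin (-0.56, adjusted p = 1.6e-04) and from 2840 ± 276 to 2122 ± 200 with nutlin-3 (-0.42, adjusted p = 0.0052). *EBP*, the isomerase that moves the sterol double bond, gave 2816, 2375 and 2527 in untreated and 1956, 1623 and 2309 in doxorubicin cells (-0.40, adjusted p = 0.0088). It gave 3774, 3238 and 3176 in DMSO and 1916, 1771 and 1605 in nutlin-3 cells (-0.94, SE 0.12, adjusted p = 1.2e-05). The DMSO arrays were all above the untreated ones, while both treated groups ended near each other, at 1963 ± 343 and 1764 ± 156. All 4 probe sets of *EBP* gave lower values with nutlin-3, from -0.43, which was not called, to -0.97. The doxorubicin call was lost without doxorubicin array 2 (-0.27, adjusted p = 0.059).

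*MSMO1*, methylsterol monooxygenase, moved with doxorubicin. It went from 5500, 4882 and 5139 to 3749, 3622 and 3474, without overlap (-0.51, SE 0.09, adjusted p = 1.2e-04). With nutlin-3 it read 6628, 6258 and 5516 beside 6900, 5681 and 6145 in DMSO, overlapping, a log2 change of -0.02 (adjusted p = 0.88). *HSD17B7*, a sterol ketoreductase, went the other way from its neighbours in the pathway. It rose from 1831, 1814 and 1586 to 2830, 3306 and 3004 with doxorubicin (0.80, SE 0.09, adjusted p = 1.6e-06) and from 2409, 2197 and 2079 to 2960, 2622 and 2586 with nutlin-3 (0.29, adjusted p = 0.032). Its only probe set is of a kind that can cross-hybridise with related sequences, and the nutlin-3 call was lost in 4 of the 12 fits, those without DMSO array 2 or 3 or nutlin-3 array 1 or 2 (0.23 to 0.31, adjusted p from 0.055 to 0.13). *NSDHL* and *TM7SF2*, a dehydrogenase and a reductase of the same branch, were called with neither agent, at 0.21 and -0.43 with doxorubicin and -0.10 and 0.24 with nutlin-3. They were called with doxorubicin without untreated array 3 (*NSDHL*, 0.32) and without doxorubicin array 2 (*TM7SF2*, -0.64). *TM7SF2* was also called lower with quantile normalization and with each array centred on its median (-0.61 in both). A second *NSDHL* probe set gave 0.18 and -0.24 with the agents, not called. Its difference between the responses (0.41) and its change in DMSO against untreated cells (0.39) were called.

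Among the genes of fatty acid synthesis, doxorubicin lowered 4 of 7 and raised 2, and nutlin-3 lowered 3 of 7 and raised none. The shares called were 85.7% and 42.9%, beside 55.7% and 26.4% of all genes. *SCD*, stearoyl-CoA desaturase, which makes monounsaturated fatty acids, had the largest fall with doxorubicin of the 30 genes. It gave 5905, 5372 and 5708 in untreated and 1130, 992 and 1100 in doxorubicin cells, a log2 change of -2.38 (SE 0.09, adjusted p = 1.9e-12). It gave 6024, 5237 and 6047 in DMSO and 2879, 2650 and 2452 in nutlin-3 cells, a change of -1.11 (adjusted p = 7.1e-08). The controls overlapped, with means of 5661 ± 270 and 5770 ± 461, and the lowest control array stood well above the highest treated one in each pair. All 4 of its probe sets gave lower values, from -1.56 to -2.38 with doxorubicin and from -0.24, which was not called, to -1.11 with nutlin-3. The pair of dimmer probe sets also gave lower values in DMSO than in untreated cells (-0.68 and -1.11, both called), unlike the brightest (0.03, adjusted p = 0.89).

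*FADS2*, the delta-6 desaturase, went from 1143, 943 and 982 to 534, 640 and 487 with doxorubicin (-0.87, SE 0.13, adjusted p = 1.6e-05) and from 636, 619 and 589 to 433, 345 and 433 with nutlin-3 (-0.59, adjusted p = 0.0018). Here the controls stood apart, and the DMSO mean of 615 ± 23.8 was near the doxorubicin mean of 554 ± 78.3. *ELOVL6*, which lengthens palmitate, went from 2437, 2912 and 2124 to 2239, 1924 and 1732 with doxorubicin, where the arrays overlap (-0.34, adjusted p = 0.021). With nutlin-3 it went from 1977, 1756 and 1856 to 1173, 1040 and 1180, without overlap (-0.71, SE 0.12, adjusted p = 1.8e-04). Its doxorubicin call was lost in 3 of the 12 fits without an array, those without untreated array 2 or doxorubicin array 2 or 3 (-0.32 to -0.22, adjusted p from 0.052 to 0.14). A second *ELOVL6* probe set gave -0.29 and -0.34 with the agents, neither called, and a dimmer one -0.65 and -0.72, both called.

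*ACACA*, acetyl-CoA carboxylase 1, which commits acetyl-CoA to fatty acids, gave 2059, 2003 and 1864 in untreated and 1275, 1119 and 1202 in doxorubicin cells (-0.71, SE 0.10, adjusted p = 1.8e-05). It gave 1575, 1299 and 1292 in DMSO and 1572, 1262 and 1363 in nutlin-3 cells, which overlap throughout (0.01, adjusted p = 0.96). A dimmer probe set of *ACACA* gave 0.12 with doxorubicin, 0.17 with nutlin-3, -0.05 for the difference and -0.12 in DMSO against untreated cells, none of them called, so the *ACACA* calls rest on the brightest probe set. *FASN*, the fatty acid synthase and a classical SREBP-1c target, was called with neither agent. Its means were 894 ± 2.72 in untreated and 894 ± 105 in doxorubicin cells (-0.01, adjusted p = 0.96), and 683 ± 16.8 in DMSO and 601 ± 51.7 in nutlin-3 cells (-0.18, adjusted p = 0.22). The enzymes that supply acetyl-CoA went up with doxorubicin: *ACLY*, ATP citrate lyase, from 8498 ± 1098 to 10391 ± 579 (0.30, adjusted p = 0.0089) and *ACSS2*, which activates acetate, from 270 ± 27.1 to 364 ± 9.98 (0.42, adjusted p = 0.011). With nutlin-3 their changes were -0.07 and 0.21, not called. Without untreated array 1 the doxorubicin change of *ACLY* was 0.21 (adjusted p = 0.057). With each array centred on its median these changes were 0.12 and 0.24 and not called.

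Of the cholesterol transport genes, *ABCA1*, which exports cholesterol from cells and is induced by the sterol-sensing LXR receptors, rose with both agents. Its signals were 117, 133 and 107 in untreated and 303, 313 and 234 in doxorubicin cells (1.14, SE 0.22, adjusted p = 2.8e-04). They were 94.6, 56.6 and 75.1 in DMSO and 215, 371 and 351 in nutlin-3 cells (1.83, adjusted p = 7.2e-06). No treated array overlapped its control group, and a second probe set gave 1.26 and 1.20, both called. The gene is dim in control cells, so the size depends on the added constant: with 1 the changes were 1.24 and 2.03, and with 64 they were 0.92 and 1.41. *STARD4*, a carrier of cholesterol in the cytosol and a known SREBP-2 target, was called with neither agent (0.12, adjusted p = 0.28, and 0.06, adjusted p = 0.68), with means from 1071 ± 42.5 in untreated to 1367 ± 53.4 in nutlin-3 cells.

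The control groups were not alike for these genes. DMSO against untreated cells lowered 5 of the 30 (*SREBF1*, *ACACA*, *FASN*, *ELOVL6*, *FADS2*) and raised 3 (*HMGCS1*, *HSD17B7*, *EBP*), beside 5.98% lowered, 8.14% raised and 14.1% called in either direction over all genes. With each array centred on its median, 3 were lower and 7 higher (2.82% and 11.5% of all genes), and the median of all genes was 0.15 and not 0.02. Of the 5 lowered genes, 4 make fatty acids and the other is *SREBF1*. The changes were -0.85 (SE 0.17, adjusted p = 0.0031) for *SREBF1*, -0.72 (adjusted p = 0.0013) for *FADS2*, -0.51 (adjusted p = 0.0039) for *ACACA*, -0.41 (adjusted p = 0.029) for *ELOVL6* and -0.38 (adjusted p = 0.022) for *FASN*. *EBP* rose by 0.40 (adjusted p = 0.034) on its brightest probe set, while the mean over its 4 probe sets was 0.01 (adjusted p = 0.96) and 2 of them gave -0.36 and -0.32, not called. *HMGCS1* rose by 0.36 (adjusted p = 0.035) and *HSD17B7* by 0.35 (adjusted p = 0.020). The calls of *SREBF1*, *FADS2* and *ACACA* held in all 12 fits that left out an array. Those of the other 5 did not, each being lost in 3 to 5 fits that left out a DMSO or untreated array: *FASN* at -0.38 to -0.37, *ELOVL6* at -0.42 to -0.29, *EBP* at 0.32 to 0.44, *HMGCS1* at 0.27 to 0.38 and *HSD17B7* at 0.28 to 0.36. In all, 4 genes were called without untreated array 2, untreated array 3 or DMSO array 2, beside 10%, 11.7% and 8.67% of all genes. Without DMSO array 1 or 3, 5 were called, beside 10.7% and 8.05% of all genes. The 3 DMSO arrays lay above all untreated arrays for 9 genes (18.7% of all genes) and below them for 7 (14.8%). The labels do not say whether both control groups were grown and processed side by side, so an effect of the solvent and a difference between cultures cannot be told apart.

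The choice of control therefore matters for some genes. Against either control group, 7 of the 30 were lower with both agents (*SREBF1*, *INSIG1*, *IDI1*, *SQLE*, *EBP*, *DHCR7* and *SCD*), which is 23.3% beside 5.22% of all genes, and *ABCA1* and *HSD17B7* were higher, beside 6.38% of all genes. Set against DMSO, the doxorubicin changes of *SCAP* (0.00, adjusted p = 0.97), *ELOVL6* (0.07, adjusted p = 0.63), *FADS2* (-0.16, adjusted p = 0.30) and *ACACA* (-0.21, adjusted p = 0.099) were not called. *FASN* was then higher with doxorubicin (0.37, adjusted p = 0.005) and *HMGCS1* lower (-0.30, adjusted p = 0.025). Set against untreated cells, nutlin-3 gave -0.18 for *LSS* and -0.17 for *SC5D*, neither called, and larger falls for *ELOVL6* (-1.12), *FADS2* (-1.31), *SREBF1* (-1.91) and *FASN* (-0.56, adjusted p = 3.5e-04). *SREBF2*, not called against DMSO, was called lower with nutlin-3 against untreated cells (-0.53, adjusted p = 0.022). On their brightest probe sets *SCD*, *DHCR7* and *SQLE* moved little with the control: *SCD* was -2.41 with doxorubicin against DMSO and -1.09 with nutlin-3 against untreated. Dimmer probe sets of *SCD* were called lower in DMSO than in untreated cells, as given above. Of the dimmer *SQLE* probe sets, 1 was called higher there (0.82) and 1 lower (-0.69).

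Over the 4 groups, the lowest mean was in doxorubicin cells for 11 genes, in nutlin-3 cells for 12, in untreated cells for 6 and in DMSO cells for *ABCA1* alone. *SCD*, *DHCR7*, *SQLE*, *LSS*, *SC5D*, *MSMO1*, *FDPS*, *MVD*, *TM7SF2*, *ACACA* and *SREBF2* were lowest with doxorubicin. *SREBF1*, *SCAP*, *INSIG1*, *INSIG2*, *FASN*, *ELOVL6*, *FADS2*, *EBP*, *IDI1*, *ACLY*, *ACAT2* and *MVK* were lowest with nutlin-3. The order of neighbours is not firm where groups lie close: for *SREBF1* and *INSIG1* the treated groups overlap, and so do the controls for *SCD*, *DHCR7* and *SQLE*.

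**Figure D3:**
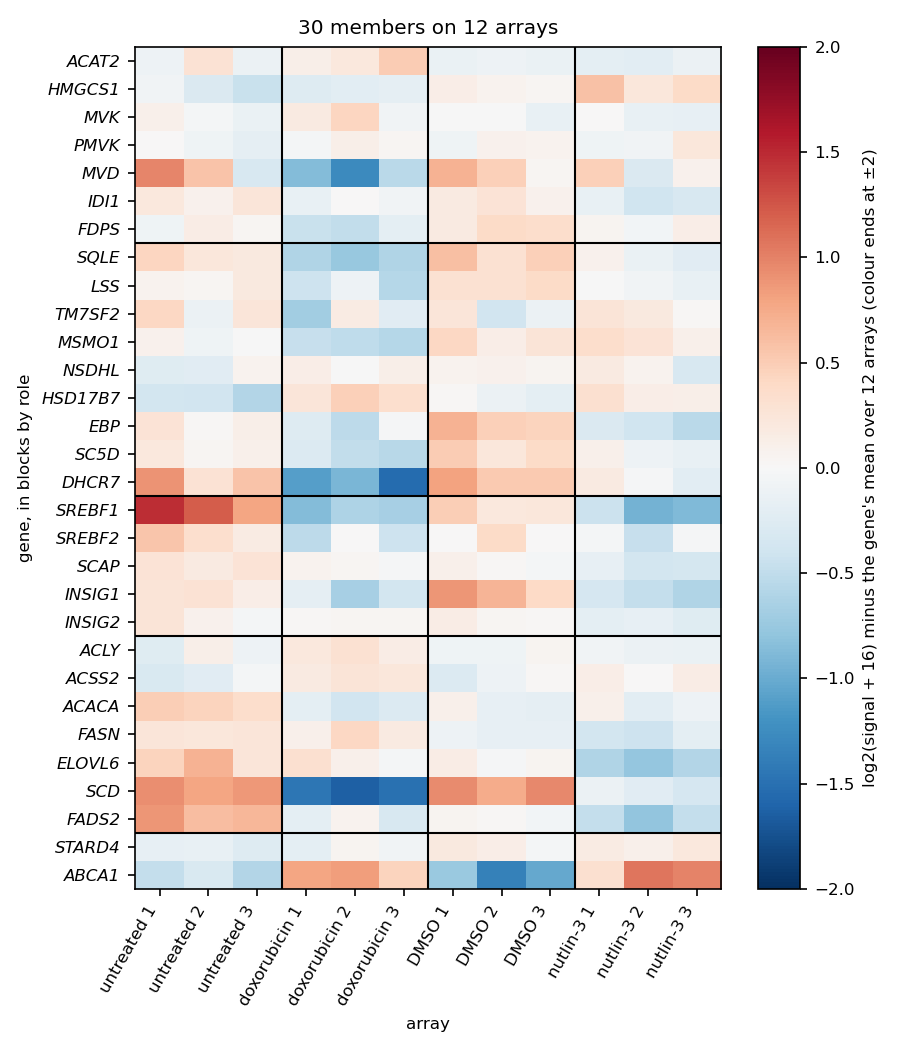
Log2(signal + 16) of 30 genes (rows, by role) on each of 12 arrays (columns, by group), with the mean of each gene over the arrays subtracted; the colour scale ends at -2 and 2. The *SCD* and *DHCR7* rows are lowest in doxorubicin cells, *SREBF1* is low in both treated groups, *ABCA1* is high in both treated groups, and the 3 arrays of a group look alike for most genes.

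Whether the agents acted to the same extent was tested as the difference between the doxorubicin and nutlin-3 responses, each against its own control. It was called for 9 of the 30 genes, 6 lower and 3 higher with doxorubicin, beside 39.5% of all genes called (17.7% lower, 21.8% higher). With each array centred on its median, 7 were lower and none higher (19.8% and 13.0% of all genes), and the positive differences of *EBP* (0.38), *HSD17B7* (0.36) and *ACLY* (0.21) were not called. *SCD* fell further with doxorubicin (difference -1.27, SE 0.13, adjusted p = 8.7e-07), *DHCR7* did so (-1.15, SE 0.24, adjusted p = 0.0011) as did *SREBF1* (-0.81, SE 0.24, adjusted p = 0.012). *ACACA* (-0.72, adjusted p = 9.2e-04), *MSMO1* (-0.49, adjusted p = 0.0058) and *SQLE* (-0.38, adjusted p = 0.044) also had a lower response to doxorubicin. *EBP* fell further with nutlin-3 (difference 0.54, adjusted p = 0.017), *HSD17B7* rose further with doxorubicin (0.51, adjusted p = 0.0055), and *ACLY* had a higher response to doxorubicin (0.37, adjusted p = 0.028). For *SREBF1*, *EBP*, *ACACA* and *HSD17B7* the controls themselves differed, as given above. The difference of *INSIG1*, 0.49 (SE 0.20), was not called (adjusted p = 0.064), nor was that of *ABCA1*, -0.68 (SE 0.31, adjusted p = 0.091). It was called without doxorubicin array 2, DMSO array 3 or nutlin-3 array 1 for *INSIG1* (0.56 to 0.62), and without nutlin-3 array 1 for *ABCA1* (-0.92). A second *ABCA1* probe set gave a difference of 0.06. The calls of *SQLE* and *ACLY* were each lost in 6 of the 12 fits: for *SQLE* without untreated array 1, doxorubicin array 2, DMSO array 2 or 3 or nutlin-3 array 1 or 2 (-0.40 to -0.29), and for *ACLY* without untreated array 1 or 3, doxorubicin array 2, DMSO array 3 or nutlin-3 array 2 or 3 (0.28 to 0.36). The median difference over the 30 genes was 0.00, beside 0.07 over all genes.

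**Figure D4:**
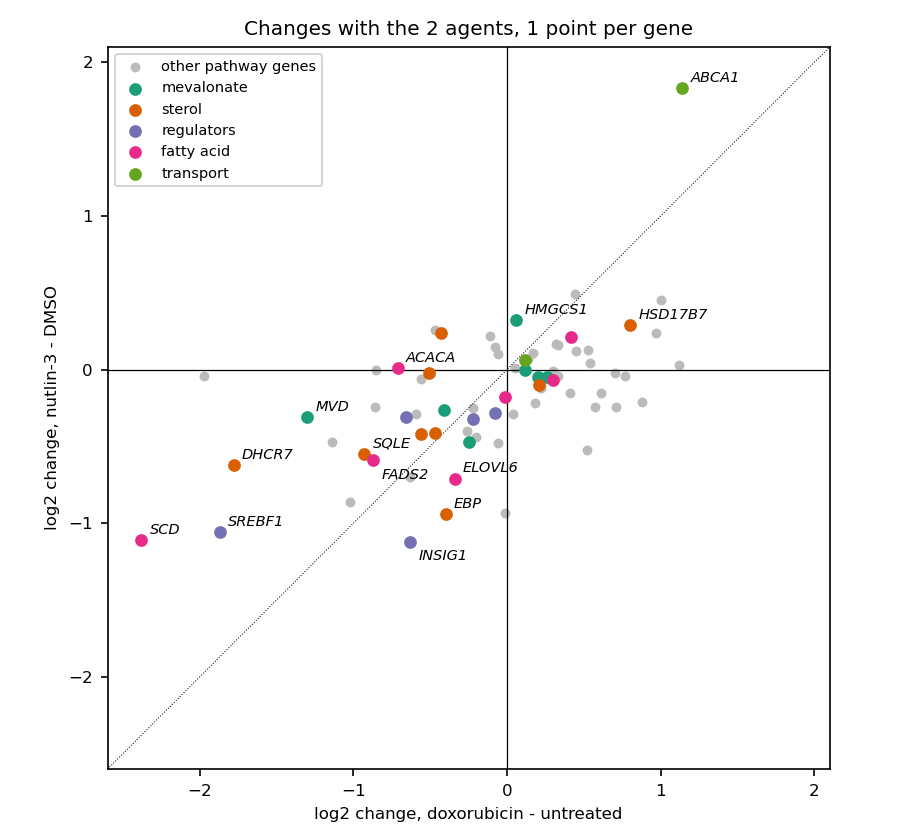
Log2 change with doxorubicin against untreated (x axis) and with nutlin-3 against DMSO (y axis) of 30 SREBP pathway genes, coloured by role, and of other lipid genes in grey; the dotted line marks equal changes. Over the 30 genes the changes correlate at r = 0.74, *ABCA1* and *HSD17B7* are positive on both axes, and *SCD* at -2.38 and -1.11 lies farthest to the left.

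Across the 30 genes the changes with the agents correlated at Pearson's r = 0.74, and across all genes tested at 0.44. The comparisons share no control array, the genes are not independent of one another, and the correlation is given as a description. The doxorubicin results stand beside the raised 3′ to 5′ ratio of those arrays. With doxorubicin array 1, the one with the lowest ratio, as the only treated array, 16 of the 30 were called, 14 lower and 2 higher, beside 46.5% of all genes. *SREBF1*, *SCD*, *DHCR7* and *SQLE* kept their calls then, while *INSIG1* (-0.41, adjusted p = 0.074), *IDI1*, *SCAP*, *ELOVL6*, *ACLY* and *ACSS2* did not, and *TM7SF2* gained one (-0.87, adjusted p = 0.026). The difference between the responses was then larger for *TM7SF2* (-1.11), *INSIG1* (0.71) and *ELOVL6* (0.57) than with all 3 arrays (-0.67, 0.49 and 0.38). It was smaller for *SQLE* (-0.33), *HSD17B7* (0.41) and *ACLY* (0.35) than with all 3 (-0.38, 0.51 and 0.37). The part of RNA quality in the doxorubicin results was not tested further.

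Other genes of lipid metabolism were listed to show what surrounds the 30. Of 10 tested genes of other isoprenoid and sterol steps, doxorubicin raised 2 and lowered 3, and nutlin-3 raised none and lowered 4. These are 50% and 40% called, beside 55.7% and 26.4% of all genes. *COQ2*, which attaches the isoprenoid tail of coenzyme Q, fell with both agents: from 1560, 1429 and 1593 to 809, 722 and 703 with doxorubicin (-1.02, adjusted p = 4.6e-08), and from 1924, 1863 and 1832 to 975, 1072 and 1033 with nutlin-3 (-0.86, adjusted p = 1.3e-06). *ERG28*, a scaffold of the sterol demethylation enzymes, fell by 1.14 and 0.47. *FNTA* and *FNTB*, the subunits of farnesyltransferase, rose with doxorubicin (0.30 and 0.52), and *LBR*, a sterol reductase of the nuclear envelope, fell with nutlin-3 (-0.44, adjusted p = 0.0022).

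Of 9 tested genes that process or degrade SREBP, SCAP and INSIG, doxorubicin raised 4 and lowered 4, and nutlin-3 lowered 2. These are 88.9% and 22.2% called, beside 55.7% and 26.4% of all genes. *MBTPS2*, the protease that makes the second SREBP cleavage, fell by 0.59 (adjusted p = 1.7e-05) with doxorubicin and by 0.29 (adjusted p = 0.020) with nutlin-3. *ERLIN1*, which helps to restrain SREBP, fell by 0.63 and 0.70. *SEC23A*, a coat protein of the vesicles that leave the endoplasmic reticulum, went from 5240, 6034 and 6205 to 3917, 2859 and 2980 with doxorubicin (-0.85, adjusted p = 5.7e-06) and was not called with nutlin-3 (0.00, adjusted p = 0.99). *AUP1*, which takes part in degradation at the endoplasmic reticulum, and *PAQR3*, which tethers SCAP and SREBP to the Golgi, rose with doxorubicin (0.61 and 0.54). Both were also higher in DMSO than in untreated cells (0.49, adjusted p = 0.003, and 0.46, adjusted p = 0.011). Their doxorubicin means, 4776 ± 260 and 2361 ± 280, were near the DMSO means of 4419 ± 619 and 2231 ± 235.

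Of 14 tested genes of other fatty acid and glyceride steps, doxorubicin raised 5 and lowered 2, and none was called with nutlin-3. The doxorubicin share was 50%, beside 55.7% of all genes, where nutlin-3 had 26.4% called. *ME1*, the malic enzyme that supplies NADPH, went from 2123, 2493 and 2331 to 538, 622 and 571 with doxorubicin (-1.97, SE 0.09, adjusted p = 1.6e-11). It read 2192, 2328 and 2373 in DMSO and 2291, 2266 and 2134 in nutlin-3 cells, which overlap (-0.04, adjusted p = 0.79), and the difference between the responses was called (-1.93, adjusted p = 9.4e-09). *DGAT1* and *DGAT2*, which complete triglycerides, rose with doxorubicin by 1.12 and 0.88, while *LPIN1*, a phosphatidate phosphatase, fell by 0.86. Of 10 tested genes of sterol uptake, storage and efflux, doxorubicin raised 5 and lowered 1, and nutlin-3 raised 1 and lowered 1. Their shares called, 60% and 20%, were near those of all genes, 55.7% and 26.4%. *TMEM97*, a sterol-regulated membrane protein that binds NPC1, fell with nutlin-3 from 6308, 5630 and 5534 to 3127, 3011 and 2999 (-0.93, SE 0.07, adjusted p = 7.2e-08). It read 4868, 4781 and 4777 in untreated and 4910, 4531 and 4869 in doxorubicin cells (-0.01, adjusted p = 0.90), and the difference was called (0.92, adjusted p = 4.1e-06).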

How the data were processed

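The deposited table gave a linear intensity for each probe set on each array, which the authors made with MAS5 per the submitters' processing notes; its version and settings are not given in the sources used here. The mean after trimming 2% at each end was 499.93 to 499.94 on every array, and array medians were 79.6 to 113.6. No detection calls were used. Of 54675 probe sets, 62 controls were left out; 41097 had 1 gene symbol, 1801 several and 11777 none listed. Symbols were updated through the gene identifier to RefSeq GRCh38.p14 (13657 of 13673 tested genes matched). Groups and replicate numbers came from the sample titles.

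Values were analysed as log2(signal + 16). Genes whose mean log2 value lay under the 40th percentile of probe sets (a signal of 49.3) were left out, and each gene was read from its brightest single-gene probe set. A single limma 3.58.1 fit (R 4.3.3, lmFit and eBayes with trend) of 12 arrays held 4 group means and no block; p-values were adjusted by Benjamini-Hochberg over the 13673 genes, and a gene was called under 0.05. The script was tested on simulated data. Genes and lists were chosen with earlier results of these data known. All 30 members are named. Of the other lists, up to 2 called rises and 2 called falls per agent are named, with some departures. *LBR* is named in addition, *ABCG1* and *MYLIP* are given under other observations, and *OSBPL9*, lower with doxorubicin (-0.56), is named only here. Alternatives covered scaling, added constant, filter, probe set choice, trend, weights, samples fitted, replicate block, control group, threshold and each array left out. The number of arrays limits the precision.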

Additional observations from a re-analysis of the deposited data

Results flagged for a closer look

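The responses to doxorubicin and nutlin-3 differed for 9 genes by the test of the difference itself (limma, Benjamini-Hochberg adjusted over all genes tested, where 39.5% were called). On the log2 scale the difference was -1.27 for *SCD*, -1.15 for *DHCR7*, -0.81 for *SREBF1*, -0.72 for *ACACA*, -0.49 for *MSMO1* and -0.38 for *SQLE*. It was 0.54 for *EBP*, 0.51 for *HSD17B7* and 0.37 for *ACLY*. The control groups of *SCD* and *DHCR7* overlapped, while those of *SREBF1*, *ACACA*, *MSMO1*, *EBP* and *HSD17B7* did not.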

How the results depend on the processing

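Over all alternatives, the number of the 30 genes called was 16 to 22 with doxorubicin, 11 to 19 with nutlin-3, 5 to 11 for the difference between the responses and 3 to 13 for DMSO against untreated cells. Of all genes, the share called over the same alternatives was 40.2% to 63.2%, 16.6% to 39.7%, 26.2% to 47.2% and 6.08% to 18.6%. Leaving out each array gave 18 to 21, 13 to 16, 7 to 11 and 4 to 10 of the 30. Of all genes these fits called 51% to 55.9%, 20.8% to 27.4%, 35.2% to 39% and 8.05% to 15.3%. For DMSO against untreated, 8 calls became 5 without the intensity trend, 13 with the replicate block and 3 at an adjusted p under 0.01, and 4 without untreated array 2, untreated array 3 or DMSO array 2. The share of all genes moved too, from 14.1% to 10.7% without the trend, 16.7% with the block and 6.08% under 0.01. In those 3 fits without an array it was 8.67% to 11.7%. The difference had 5 calls, not 9, at an adjusted p under 0.01, where 27% of all genes, not 39.5%, were called. The replicate block left 21 calls with doxorubicin and gave 17 with nutlin-3 and 10 for the difference. Of all genes it called 57.2%, 28.5% and 41.6%. Same-numbered arrays correlated at -0.09 to 0.17 and the others at -0.18 to 0.15. With 3 arrays a group, these values cannot show whether the numbers pair the arrays. With the mean of all probe sets, *MVK* (-0.53) and *LSS* (0.13) changed sign with doxorubicin, and *SCD* (-0.50) in DMSO against untreated cells. With the other control group, *HMGCS1* (-0.30), *FASN* (0.37) and *ELOVL6* (0.07) changed sign with doxorubicin, and *MSMO1* (0.24) and *ACACA* (-0.50) with nutlin-3. The cause was not tested. Median centring lost the nutlin-3 calls of *HMGCS1*, *HSD17B7* and *INSIG2*. Apart from the choice of control and threshold, 12 of 21 doxorubicin, 10 of 16 nutlin-3, 5 of 9 difference and 3 of 8 DMSO calls held in every alternative. A fit of the compared groups only has no value for the difference. The fit with doxorubicin array 1 alone was chosen after seeing the data and assumes that this array varies like the other groups. With 3 arrays a group, and with dim genes such as *MVD* near the filter, small changes could not be resolved.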

Other observations

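*ABCG1* and *MYLIP*, genes of sterol efflux and uptake, were singled out after their values were seen. *ABCG1*, a cholesterol exporter, gave 438, 630 and 499 in untreated and 1117, 1153 and 889 in doxorubicin cells, a rise of 1.00 (adjusted p = 4.3e-05). It gave 349, 279 and 387 in DMSO and 519, 491 and 396 in nutlin-3 cells, a rise of 0.45 (adjusted p = 0.042). *MYLIP*, a ubiquitin ligase of lipoprotein receptors, rose with doxorubicin from 1344, 1349 and 1188 to 2324, 3143 and 2244 (0.97, adjusted p = 2.1e-05). With nutlin-3 it gave 845, 801 and 591 beside 659, 662 and 553, a change of 0.24 that was not called (adjusted p = 0.25). Both were lower in DMSO than in untreated cells, by -0.60 (adjusted p = 0.018) and -1.03 (adjusted p = 2e-04), and *ABCA1* gave -0.58 there, not called (adjusted p = 0.091).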
